A study of Mus musculus with 5 samples.

Results

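The genes described here code for the platelet-derived growth factors (PDGF), the Kit ligand and their receptors: *Pdgfa*, *Pdgfb*, *Pdgfc*, *Pdgfra*, *Pdgfrb*, *Kitl* and *Kit*. They were chosen by name, and all 7 had a tag in at least 1 library, among 13489 genes with a tag. The data are Tag-seq counts from mouse heart at embryonic day 10.5, with 1 library for each of 5 tissues. The atrioventricular canal (AVC), the outflow tract (OFT), the atria and the ventricles came from wild type C57BL/6 embryos. The fifth library came from the AVC of *Twist1* Knockout embryos (here the *Twist1* null AVC) on the ICR strain, so genotype and strain cannot be told apart. Each library was made from hand-dissected tissue of at least 3 pooled litters. The chambers were punctured and the tissue washed to remove blood before collection, though haemoglobin tags remained (shares below). The extent of the *Twist1* deletion was not used here.

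PDGF ligands are secreted dimers that bind the receptor tyrosine kinases PDGFRα and PDGFRβ. The A and C chains bind mainly PDGFRα, and the B chain binds both receptors. In the embryo the α receptor is known from mesenchymal and neural crest cells and the β receptor from pericytes and vascular smooth muscle. Kit ligand, also called stem cell factor, exists in membrane-bound and soluble forms and activates KIT, which is best known from blood progenitors, melanoblasts, germ cells and mast cells. KIT and both PDGF receptors belong to the same class of receptor kinases, and *Pdgfra*, *Kit* and the VEGF receptor gene *Kdr* lie next to each other on mouse chromosome 5.

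In Tag-seq, cDNA is cut at the sites of the enzyme NlaIII (CATG), and the 17 bases after a site are counted as a tag. Each distinct tag is called a tag type. The files list only tag types seen more than 5 times in a library, so a gene without a listed tag is not shown to be absent. Levels are in tags per 1000000 listed tags (TPM), summed over the tags that match the sense strand of 1 gene. Intervals are exact 95% intervals on counts. They take in the error of counting alone: copies made by PCR count as tags, and there was no replicate.

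The libraries held between 4223810 (ventricles) and 12977237 tags (*Twist1* null AVC), so that the smallest listed tag type stands for 1.42 and 0.462 TPM, respectively. *Twist1* itself was at 918 TPM in the AVC, against 299 for the OFT, 63.4 for the atria, 55.9 for the ventricles and 4.55 for the *Twist1* null AVC. Haemoglobin tags took 21.5% of the atria, 4.67% of the ventricles, 2.73% of the *Twist1* null AVC, 0.242% of the AVC and 0.307% of the OFT. *Isl1* was highest in the OFT, *Nr2f2* in the atria and *Myl2* in the ventricles, as these libraries are labelled. Other markers went against the labels: the atrial gene *Sln* was at 1.29 TPM in the atria and 1.71 in the OFT, and of the ventricular genes *Irx4* was at 2.84 TPM in the ventricles and 27.2 in the AVC, and *Hey2* at 46.4 in the ventricles and 84.1 in the OFT. In such pooled tissue, fewer cells of a type and less RNA per cell cannot be told apart.

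Tag types that the results below refer to are printed here with the distance from their site to the 3′ end of the transcript. Capitals mark the NlaIII site. They are listed because in the *Twist1* null AVC the tag types of a single gene did not move alike. The *Pdgfrb* tags are not shown.
*Kitl*, 1053 bases from the end: CATGagatggcttttaccttt
*Kitl*, 2074 bases from the end: CATGtatgttctgaaaatttg
*Kitl*, 3921 bases from the end: CATGgggagtatttttttttc
*Pdgfra*, 66 bases from the end: CATGttttgttttaaaaagtg
*Pdgfra*, 630 bases from the end: CATGcaccaccacactcagca
*Pdgfra*, 2398 bases from the end: CATGatttctttacagagaaa
*Pdgfra*, in intron 16: CATGctcattctggcaaatat
*Pdgfc*, 196 bases from the end: CATGgatatttttatgtacag
*Pdgfc*, 854 bases from the end: CATGgtttggagaaagcacac
*Pdgfa*, 562 bases from the end: CATGaagtgagtaagcttctc
*Pdgfa*, 391 bases from the end: CATGatatacctacctatcca
*Pdgfa*, 209 bases from the end: CATGacagagattattttata
*Pdgfb*, 409 bases from the end: CATGgtactggggaagcaacc
*Kit*, 81 bases from the end: CATGtgggttttttctgatat
*Kit*, 414 bases from the end: CATGtctttgtattcctaatg
On GRCm38, the build of the GENCODE M21 annotation, the main *Kitl* tag lies at chr10:100099364-100099384, in the 3′ UTR of the gene's RefSeq-linked transcript. It is the last NlaIII site of that transcript. The *Pdgfra* tag 66 bases from the end is at chr5:75198136-75198156 and is likewise the last site, in the 3′ UTR. The main *Pdgfc* tag (chr3:81213845-81213865) and the only *Pdgfb* tag (chr15:79996262-79996282) are also at the last site of their transcripts, in the 3′ UTR. The *Pdgfa* tag 562 bases from the end (chr5:138976555-138976575, minus strand) is the sixth site from the end, in the 3′ UTR.

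*Pdgfa*, the gene of the A chain, was found in all libraries. Its level was 14.3 TPM for the AVC (95% interval 11.5 to 17.7), 28.5 for the OFT (24.1 to 33.4), 12.0 for the atria (9.07 to 15.6), 6.87 for the ventricles (4.60 to 9.86) and 24.6 for the *Twist1* null AVC (22.0 to 27.4). The OFT stood high together with the *Twist1* null AVC, with overlapping intervals, while the AVC overlapped with the atria and the atria with the ventricles. *Pdgfc*, whose product is secreted as a latent factor and activated by cleavage, had 12.5 TPM for the AVC (9.86 to 15.7), 15.95 for the OFT (12.7 to 19.7), 13.1 for the atria (9.999 to 16.8), 3.79 for the ventricles (2.17 to 6.15) and 5.09 for the *Twist1* null AVC (3.93 to 6.47). The AVC, the OFT and the atria were thus level within counting error, and the ventricles and the *Twist1* null AVC lower and level with each other. *Pdgfb*, a ligand known from endothelial cells, was near the limit of listing in every library. It had 13 tags for the AVC, 8 for the OFT, none listed for the atria, 7 for the ventricles and 12 for the *Twist1* null AVC, which is 2.14 TPM at most, and the intervals of all neighbours in this order overlapped.

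*Pdgfra*, the gene of the α receptor, had 35.2 TPM for the AVC (30.7 to 40.3), 14.2 for the OFT (11.2 to 17.9), 2.57 for the atria (1.33 to 4.49), 5.21 for the ventricles (3.26 to 7.89) and 35.8 for the *Twist1* null AVC (32.6 to 39.2). Both AVC libraries were the highest and overlapped, the OFT stood between them and the chambers, and the chambers overlapped. *Pdgfrb*, the gene of the β receptor, had 15.3 TPM for the AVC (12.4 to 18.8), 10.4 for the OFT (7.87 to 13.6) and 2.62 for the *Twist1* null AVC (1.81 to 3.66). It had no listed tag in the atria and ventricles, which allows at most 3.21 and 3.55 TPM with 5 tags for each of its 3 tag types. The *Twist1* null AVC was below the AVC and the OFT without overlap, and it was not above what the chambers could hold unlisted.

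*Kitl* had 121.6 TPM for the AVC (113.0 to 130.7), 160.0 for the OFT (149.4 to 171.2), 1.5 for the atria (0.603 to 3.09), 1.66 for the ventricles (0.666 to 3.42) and 27.4 for the *Twist1* null AVC (24.6 to 30.4). The chambers, with 7 tags each, overlapped and all other neighbours in this order were apart. *Kit*, the receptor, had 22 tags for the AVC (3.62 TPM, 2.27 to 5.48), none listed for the OFT, 7 for the atria (1.5 TPM, 0.603 to 3.09), none for the ventricles and 58 for the *Twist1* null AVC (4.47 TPM, 3.39 to 5.78). The library with the highest *Kitl* level, the OFT, was thus without a listed *Kit* tag, at a bound of 1.90 TPM, and both AVC libraries overlapped. The plot of levels by library shows these values.

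**Figure D1:**
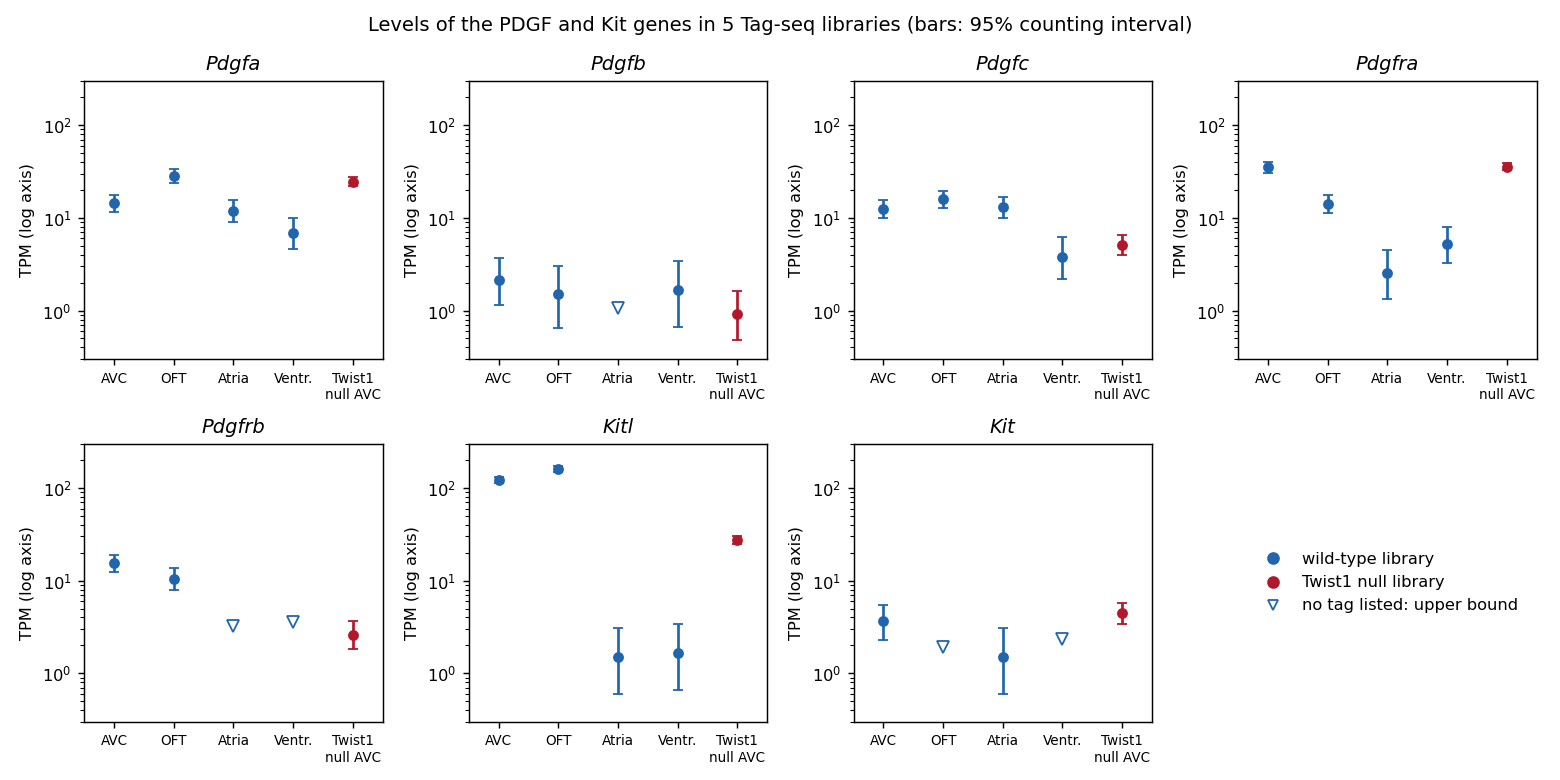
Levels of the 7 genes in TPM (log axis) in the 4 wild-type libraries (blue) and the *Twist1* null AVC library (red), each point 1 library with its 95% counting interval and open triangles the upper bound where no tag is listed. *Kitl* and *Pdgfrb* stand high in the AVC and OFT, low or unlisted in the chambers and below the AVC in the *Twist1* null AVC, while *Pdgfra* is at 35.2 and 35.8 TPM in both AVC libraries.

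The AVC was compared with the summed atria and ventricles to ask which of these genes stand higher where endocardial cushions form. The receptors and *Kitl* were higher in the AVC, and no PDGF ligand was called. *Kitl* was 77.2-fold higher in the AVC (95% counting interval 45.7 to 142), *Pdgfra* 9.21-fold (6.39 to 13.7) and *Pdgfrb* at least 4.54-fold. *Kit* was 4.60-fold higher (1.90 to 12.8) on 22 against 7 tags. Genes were tested by the exact test of edgeR, two-sided, with the dispersion set to 0.12, and an unadjusted p under 0.05 counts as a call. With 1 library a side it compares these libraries, not the tissues. The exact p was 3.16e-11 for *Kitl*, 0.000101 for *Pdgfra*, 5.96e-09 for *Pdgfrb* and 0.0381 for *Kit*, and after Benjamini-Hochberg adjustment over all genes 5.73e-09, 0.000744, 3.33e-07 and 0.0792. Thus 4 of 7 were called higher and none lower, against 43.4% of all 12506 genes called higher and 8.12% lower (51.5% together, and 41.1% by adjusted p). By adjusted p, 3 of the 7 were called. The median log2 ratio of all genes was 1.23, so the chambers were low for most genes, and TMM normalization (a scaling that centres the bulk of the genes) moved it by -0.95.

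None of the ligands was called, and *Pdgfa* and *Pdgfc* lay below the median ratio of all genes. *Pdgfa* was at 1.498 times the chamber level (1.10 to 2.04, exact p 0.451), *Pdgfc* at 1.44 times (1.04 to 2.01, p 0.505) and *Pdgfb* at 2.72 times (1.01 to 8.04, p 0.243), with 13 against 7 tags. *Pdgfb* rests on which chamber is used: it was called without the ventricles (13 tags against none listed, p 0.00545) and not without the atria (log2 ratio 0.36, p 0.758). For *Pdgfa* and *Pdgfc* the direction turned with TMM normalization, to log2 ratios of -0.37 and -0.42. *Kitl*, *Pdgfra* and *Pdgfrb* were called in all 17 alternative settings, with log2 ratios of *Pdgfra* between 2.21 and 4.37. *Kit* was called in 9 of 15 and not with TMM normalization (log2 ratio 1.24, p 0.231) or without the ventricles (1.26, p 0.231), where 22 tags stand against 7.

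In the OFT the comparison with the same chamber libraries gave 4 of 7 called higher and none lower, against 40.6% of 12453 genes higher and 8.88% lower (49.5% together). By adjusted p 3 of the 7 were called, against 40.9% of all genes. *Kitl* was 101.6-fold higher (60.2 to 187, exact p 3.54e-12, adjusted p 1.00e-09) and *Pdgfrb* at least 3.09-fold (p 1.88e-07, adjusted p 4.88e-06). *Pdgfra* was 3.72-fold higher (2.45 to 5.76, p 0.0197, adjusted p 0.0483) and *Pdgfa* 2.98-fold (2.27 to 3.93, p 0.0400, adjusted p 0.0838). *Pdgfb* (p 0.458), *Pdgfc* (1.84-fold, p 0.254) and *Kit* (p 0.0619) were not called. *Kit*, with no tag listed in the OFT against 7, was called lower with TMM normalization, with DESeq2 size factors and without the ventricles (p 0.0391 each) and at a dispersion of 0.05 (p 0.0435), and had p 0.861 with 5 tags put in. *Pdgfb* was called higher without the ventricles, with 8 tags against none listed (p 0.0254). The calls of *Kitl* and *Pdgfrb* held in all 17 alternatives. With TMM normalization the log2 ratios of *Pdgfra* and *Pdgfa* were 1.04 (p 0.197) and 0.72 (p 0.344), neither called, and *Pdgfra* was also not called without the atria (1.45, p 0.0843) nor *Pdgfa* without the ventricles (1.24, p 0.110). Both comparisons share the chamber libraries and are not independent.

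Set directly against each other, the AVC and the OFT differed in few of these genes. Only *Kit* was called, with 0 tags in the OFT and 22 in the AVC (at least 1.91-fold lower, exact p 0.000376, adjusted p 0.0214), where 5.22% of 12544 genes were called higher in the OFT and 7.36% lower (12.6% together, and 3.12% by adjusted p). With 5 tags put in for each missing tag type the p of *Kit* was 0.0544. *Pdgfra* was 2.47-fold lower in the OFT (1.89 to 3.26 from counting), which was not called (p 0.0878) but was from the last site alone (log2 ratio -1.65, p 0.0369). *Kitl* was at 1.32 times the AVC level (1.19 to 1.45, p 0.586), *Pdgfa* at 1.99 times (1.52 to 2.62, p 0.192), *Pdgfc* at 1.28 times (0.924 to 1.76, p 0.668), *Pdgfrb* at 0.682 times (0.480 to 0.962, p 0.478) and *Pdgfb* at 0.710 times (0.255 to 1.85, p 0.775). None of these was called, and the counting intervals alone do not show that the levels are alike.

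Between the chambers, *Pdgfc* was 3.45-fold lower in the ventricles than in the atria (1.97 to 6.41, exact p 0.0382, adjusted p 0.203). It was the only called gene of the 7 with listed tags on both sides, where 9.04% of 10707 genes were called lower and 11.1% higher (20.1% together, and 6.27% by adjusted p). *Pdgfb* (7 tags against none) and *Kit* (none against 7) also passed the unadjusted threshold (p 0.0391 each, adjusted p 0.203), at counts next to the limit of listing, and neither did with 5 tags put in. *Pdgfa* (1.75-fold lower, p 0.352), *Pdgfra* (2.03-fold higher, p 0.278) and *Kitl* (7 tags each) were not called, and *Pdgfrb* had no tag to compare.

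**Figure D2:**
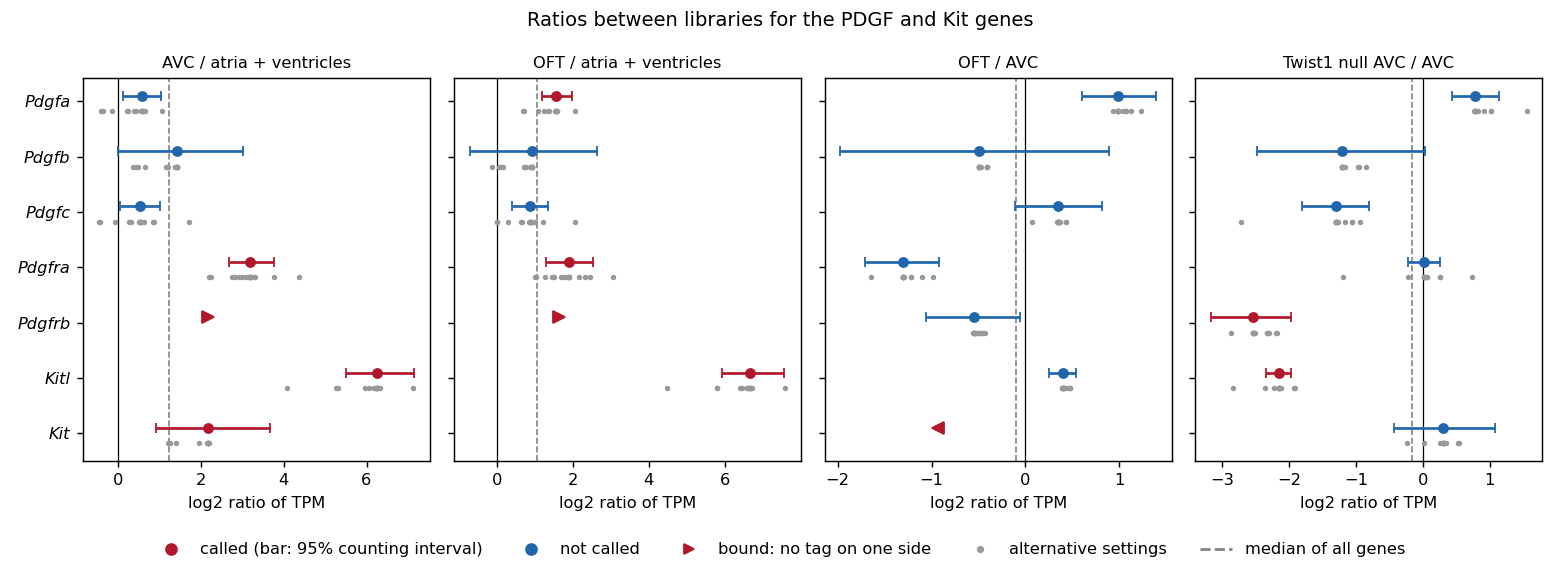
Log2 ratios of TPM between libraries for the 7 genes, red where called and blue where not, with 95% counting intervals, triangles for bounds, grey points for alternative settings with tags on both sides and a dashed line at the median of all genes. *Kitl* lies at 6.26 and 6.65 in the AVC and OFT against the chambers, and *Kitl* and *Pdgfrb* at -2.15 and -2.54 in the *Twist1* null AVC against the AVC.

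The *Twist1* null AVC was compared with the wild-type AVC to ask which genes differ with loss of *Twist1*, a transcription factor of cushion mesenchyme. *Pdgfrb* and *Kitl* were lower, and *Pdgfra* was at 35.8 against 35.2 TPM. *Pdgfrb* was 5.84-fold lower (3.91 to 8.93, exact p 0.00195, adjusted p 0.0288) and *Kitl* 4.45-fold lower (3.91 to 5.06, p 0.00430, adjusted p 0.0482). These 2 of 7 stand against 12.7% of 12966 genes called lower and 11.9% higher (24.6% together, and 9% by adjusted p). Both calls held in 13 of 14 alternatives and were not made at a dispersion of 0.4, with p of 0.0839 for *Pdgfrb* and 0.129 for *Kitl*. In a further setting, without the most abundant tag type of each gene, *Kitl* was not lower (log2 ratio 0.65, p 0.403). *Pdgfra* was at 1.02 times the AVC level from counting (0.862 to 1.20, p 0.985). *Pdgfa* was at 1.72 times (1.35 to 2.20, p 0.30), *Pdgfc* 2.46-fold lower (1.75 to 3.47, p 0.10), *Pdgfb* 2.31-fold lower (0.973 to 5.55, p 0.231) and *Kit* at 1.23 times (0.744 to 2.12, p 0.724), and none of these was called.

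Markers of the tissue differed between these libraries too. The levels of the 8 markers of cushion mesenchyme, *Twist1* among them, were summed. The AVC held 3138 TPM, the OFT 3216, the atria 187, the ventricles 198 and the *Twist1* null AVC 441. Of these markers 2 were unlisted for the atria and 1 for the ventricles. The libraries stood in the same order for *Kitl*. *Pdgfrb* was higher in the AVC than in the OFT, with overlapping intervals, lower in the *Twist1* null AVC and unlisted in both chambers. In the AVC and the *Twist1* null AVC, *Col3a1* was at 1439 and 206.6 TPM, the targeted gene *Twist1* at 918 and 4.55, and *Sox9* at 514 and 113.5. *Msx1*, at 92.3 and 61.0 TPM, and *Prrx1*, at 29.8 and 16.1, differed less. The 7 endothelial and endocardial markers summed to 384 TPM for the AVC, 435 for the OFT, 142 for the atria, 197 for the ventricles and 530 for the *Twist1* null AVC. The 8 cardiomyocyte markers summed to 22920 and 20130 TPM in the AVC and the *Twist1* null AVC, and between 8458 and 24410 over all libraries. Single cardiomyocyte genes differed more, with *Myh6* at 2696 and 289.5 TPM and *Tnni1* at 795.5 and 1565 in the AVC and the *Twist1* null AVC. The part of cell composition in the results for *Pdgfrb* and *Kitl* was not tested.

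For the receptors, the smooth muscle and pericyte list held 507 TPM for the AVC, 1280 for the OFT, 286 for the atria, 398 for the ventricles and 1035 for the *Twist1* null AVC. Its pericyte gene *Rgs5* was at 178 TPM in the OFT and between 0 and 6.86 in the others, and *Cspg4* was at 9.55 and 9.68 TPM in the AVC and OFT, 1.5 in the atria, unlisted in the ventricles and 7.71 in the *Twist1* null AVC. Most of the difference in the sum between the AVC libraries was in *Acta2* (119.8 and 716 TPM), while *Tagln* was at 172 and 113 TPM and *Cnn1* at 200.6 and 192. The part of these cells in the *Pdgfrb* level was not tested. Of the markers of the cells best known for *Kit*, *Cpa3* of mast cells and *Dct* and *Pmel* of melanoblasts had no tag in any library, *Ptprc* had a tag in the AVC alone (0.988 TPM) and *Sox10* was at 1.98 and 2.31 TPM in the AVC and the *Twist1* null AVC and unlisted elsewhere. *Gata1* had 12.2 TPM for the atria, 10.2 for the *Twist1* null AVC, 4.74 for the ventricles and 0.988 for the AVC, and none for the OFT. *Runx1* had 3.55 TPM for the ventricles, 2.96 for the AVC and 1.93 for the *Twist1* null AVC, and none for the OFT and atria. *Kit* was unlisted in the ventricles, which held both markers, and in the OFT, where *Cd34* was highest (40.1 TPM). *Mitf* was between 56.6 and 62.8 TPM in both AVC libraries and the OFT. Erythroid markers were at 215400 TPM in the atria, where *Kit* had 7 tags, and at 46730 in the ventricles, where it had none.

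Within *Kitl* some tag types were lower and others higher in the *Twist1* null AVC. The tag at the last site had 695 tags for the AVC, 801 for the OFT, 7 for each chamber and 207 for the *Twist1* null AVC. This is 114 TPM in the AVC and 15.95 in the *Twist1* null AVC, 7.17-fold lower (each tag type tested alone, exact p 0.000255, adjusted p 0.00374). The rest of the *Kitl* tags were at 7.24 TPM for the AVC and 11.4 for the *Twist1* null AVC (1.58-fold, p 0.403). So the lower *Kitl* level rests on the tag of the last site. That tag was 94.1% of *Kitl* tags in the AVC (92.1 to 95.6), 95.02% in the OFT (93.3 to 96.4) and 58.3% in the *Twist1* null AVC (53.0 to 63.5). The tags 2074 and 3921 bases from the end had 52 and 34 tags in the *Twist1* null AVC and were not listed in any wild-type library (p 0.000110 and 0.00107). Both sites lie upstream in the same 3′ UTR, at chr10:100098343-100098363 and chr10:100096496-100096516. In these tests an unlisted tag type counts as 0. The AVC could hold 5 unlisted tags of each (0.823 TPM), against 4.01 and 2.62 TPM for these tag types in the *Twist1* null AVC. Testing tag types alone was added after seeing the data. Of 41298 tag types, 24.7% were called higher and 20.1% lower (44.9% together), with the same limit.

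The *Pdgfra* total likewise held tag types with different ratios. The tag 66 bases from the end had 109 tags for the AVC, 30 for the OFT, 6 for the atria, 15 for the ventricles and 387 for the *Twist1* null AVC, which is 17.9 against 29.8 TPM between the AVC libraries (1.66-fold, p 0.327). The tag 2398 bases from the end had 70, 32, 0, 0 and 61 tags in the same order and was 2.45-fold lower in the *Twist1* null AVC (p 0.0956), and that 630 bases from the end had 35, 13, 6, 7 and 16 tags and was 4.67-fold lower (p 0.0106, adjusted p 0.0389). Without the tag nearest the end, *Pdgfra* was 2.91-fold lower in the *Twist1* null AVC (17.3 against 5.93 TPM, p 0.0449, adjusted p 0.122), where 12.3% of 9286 genes were called lower and 25.3% higher (37.6% together). The share of *Pdgfra* tags at the last site was 50.9% in the AVC (44.0 to 57.8) and 83.4% in the *Twist1* null AVC (79.7 to 86.7).

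A further *Pdgfra* tag type lies outside the totals above, since it belongs to no RefSeq-linked transcript. It is at chr5:75183154-75183174, 12 bases after the end of exon 16 of the full-length transcript, which has 23 exons. It is carried by 2 annotated transcripts, and in the transcript examined the last exon runs on into intron 16. Which RNA gave these tags was not tested. The tag type had 46 tags for the AVC (7.57 TPM, 5.54 to 10.1), 17 for the OFT and 11 for the atria. None was listed for the ventricles, and the *Twist1* null AVC had 13 (1.002 TPM, 0.533 to 1.71). For each 100 other *Pdgfra* tags it thus had 21.5 in the AVC and 2.80 in the *Twist1* null AVC. With all annotated transcripts counted, the log2 ratio of *Pdgfra* between these libraries was -0.22.

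*Pdgfc* and *Pdgfa* showed shifts of the same kind. The *Pdgfc* tag at the last site had 65 tags for the AVC, 59 for the OFT, 43 for the atria, 9 for the ventricles and 21 for the *Twist1* null AVC, 6.61-fold lower in the last than in the AVC (p 0.00146, adjusted p 0.00992), whereas the tag 854 bases from the end had 11, 25, 18, 7 and 45 tags (1.92-fold higher, p 0.341). The *Pdgfa* tag 562 bases from the end had 19 tags for the AVC, 39 for the OFT, 23 for the atria, 14 for the ventricles and 221 for the *Twist1* null AVC, 5.45-fold higher (p 0.00315, adjusted p 0.0169). Its other tags together were at 11.2 TPM for the AVC and 7.55 for the *Twist1* null AVC, which was not called (p 0.471). All 3 *Pdgfrb* tag types were called lower in the *Twist1* null AVC. That of the last site had 80 tags in the AVC against 34 (5.03-fold, p 0.00455, adjusted p 0.0224). The others had 7 and 6 against none listed (p 0.0168 and 0.0254, adjusted p 0.0496 and 0.0639), at counts next to the limit of listing. Of 25 tag types of the 7 genes tested in this comparison, 9 were called lower and 4 higher, against 20.1% and 24.7% of all tag types (44.9% together).

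To see how unusual such shifts are, the share of a gene's tags that would have to move to other tag types to turn the AVC split into that of the *Twist1* null AVC was computed for the 7421 genes with several tag types and at least 50 tags in both libraries. It was 53.7% for *Pdgfc*, 47.4% for *Pdgfa*, 38.0% for *Kitl* and 32.5% for *Pdgfra*, with a median over all genes of 14.8%. A value as large was found in 3.85%, 6.79%, 13.0% and 18.9% of genes, respectively. Between the OFT and the AVC the share was 2.16% for *Kitl*, 10.9% for *Pdgfra*, 15.3% for *Pdgfc* and 26.5% for *Pdgfa*, with a median of 6.89% over 6863 genes. These are descriptions, and genes with few tags reach larger shares from counting alone.

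The *Twist1* null AVC library also differed from the AVC in a property of the tag itself. Among 9282 tag types with at least 50 tags in both, the median log2 ratio was 0.56 for tags that begin with T after the site, and -0.76, -0.59 and -0.77 for those that begin with A, C and G. The *Pdgfra* tag at the last site and both *Kit* tags begin with T, as does the *Kitl* tag 2074 bases from the end. Without all tags that begin with T, the log2 ratio of *Pdgfra* to the AVC was -1.19 (p 0.122), that of *Kitl* -2.22 (p 0.00338), that of *Pdgfrb* -2.19 (p 0.00674) and that of *Pdgfa* 1.55 (p 0.0425). *Kitl* and *Pdgfrb* were called lower without these tags as well. No *Pdgfrb* tag type begins with T, so for *Pdgfrb* this setting changed only the library totals. The main *Kitl* tag begins with A, whereas of its other tags in the *Twist1* null AVC those with 52 and 28 tags begin with T and those with 34 and 17 with G. Both *Pdgfc* tags begin with G. The 3 *Pdgfa* tags nearest the end begin with A and its 2 coding tags, with 16 and 8 tags in the AVC against 11 and none listed, begin with T. The part of this property in the levels and the splits of these genes was not tested. In the comparisons among wild-type libraries the medians lay closer. For the AVC against the chambers that of T was 0.27 and those of the other bases ran from 0.66 to 0.83, and for the OFT against the AVC it was 0.07 with the others between -0.1 and -0.06.

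**Figure D3:**
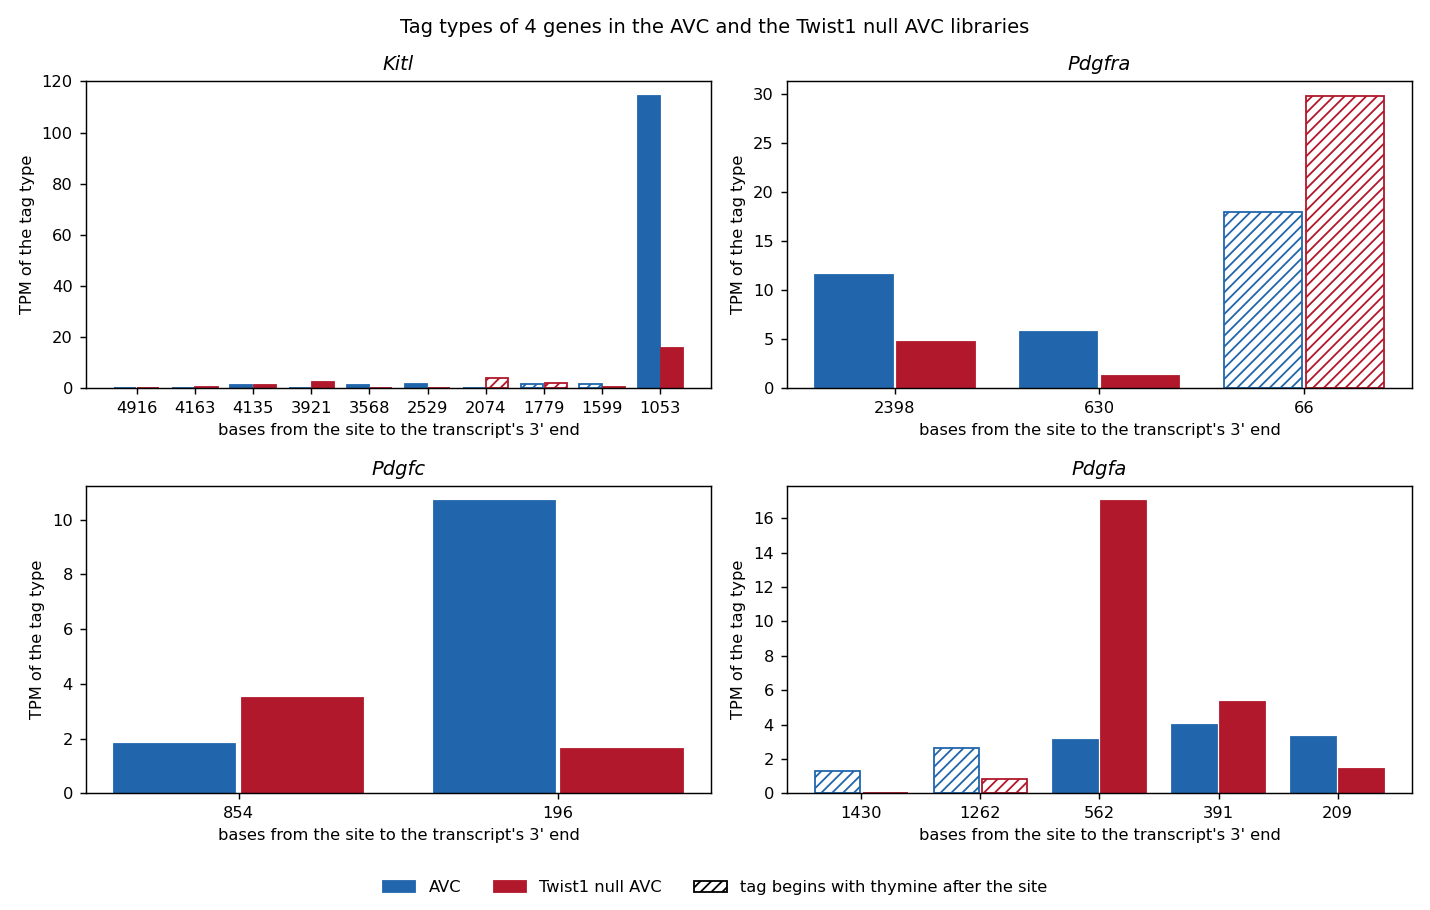
TPM of each tag type of *Kitl*, *Pdgfra*, *Pdgfc* and *Pdgfa* in the AVC (blue) and the *Twist1* null AVC (red), ordered by the distance in bases from the site to the 3′ end of the transcript, hatched where the tag begins with thymine. The last *Kitl* site goes from 114 to 15.95 TPM and the last *Pdgfc* site from 10.7 to 1.62, while the last *Pdgfra* site is at 17.9 and 29.8 and the *Pdgfa* tag 562 bases from the end at 3.13 and 17.0.

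Signalling downstream of these receptors runs through shared adaptors, the RAS and ERK cascade and AKT, and is limited by ubiquitin ligases and phosphatases. Without TMM normalization, the counts of all lists against the chambers stand beside 43.4% of all genes called higher and 8.12% lower in the AVC. In the OFT these shares are 40.6% and 8.88%. Of 24 genes of adaptors and effectors, 23 were tested in the AVC against the chambers and 12 were called higher and 1 lower, with a median log2 ratio of 1.64 against 1.23 for all genes. *Gab1*, a docking protein of receptor kinases, was at 100.1 TPM (AVC) and 154 TPM (OFT) against 4.93 for the atria and 2.37 for the ventricles (26.8-fold and 41.3-fold higher, p 4.19e-08 and 1.50e-09). *Stat3* was 34.3-fold higher in the AVC (p 1.06e-08). *Gab2* was at 14.98 TPM (AVC) and 21.3 TPM (OFT) and unlisted in both chambers. In the OFT 10 of these genes were called higher and 1 lower, with a median of 1.32 against 1.07. With TMM normalization the AVC had 9 higher and 2 lower, and the OFT 10 and 1. Over all genes, 5402 of 12506 were then called in the AVC, 59.4% of these calls higher. In the OFT 5458 of 12453 were called, 59.7% of these calls higher. List counts with TMM normalization against the chambers, here and below, stand beside these values.

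Of 14 negative regulators, the AVC had 8 called higher and the OFT 6, none lower in either, with medians of 2.05 against 1.23 for all genes and 1.36 against 1.07. The OFT count is near the 40.6% of all genes called higher. *Cbl*, a ubiquitin ligase that marks KIT and PDGF receptors for degradation, was at 173 TPM (AVC) and 245 TPM (OFT) against 9.43 for the atria and 13.3 for the ventricles (15.3-fold and 21.8-fold higher, p 1.43e-06 and 1.02e-07). *Ptpn1*, a tyrosine phosphatase, was 16.7-fold and 22.9-fold higher, and *Sh2b3*, an adaptor that restrains KIT signalling, 17.2-fold and 14.9-fold higher. Of the kinases of the RAS, ERK and AKT cascades 3 of 12 were called higher in the AVC, among them *Mapk3* (5.14-fold, p 0.00263), and *Map2k2* was 3.63-fold lower (147 TPM against 567 for the atria and 495 for the ventricles, p 0.0122). In the OFT 4 of 12 were higher and 1 lower. With TMM normalization the AVC had 2 kinases higher and 2 lower, and the OFT 1 higher and 2 lower. Of the negative regulators the AVC then had 5 higher and none lower, and the OFT 5 higher and 1 lower.

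The immediate early genes, which growth factor signals induce within minutes to hours, had 6 of 9 tested called higher in the AVC and 1 lower. *Ier2* was 13.4-fold higher (p 1.12e-05) and *Jun* 5.32-fold (p 0.00159), and *Myc* was 5.06-fold lower (5.10 TPM against 37.9 for the atria and 12.6 for the ventricles, p 0.00342). In the OFT 5 of 9 were called higher and none lower. With TMM normalization both comparisons had 4 higher and 1 lower. Among proteins that process or bind these ligands, 3 of 7 tested were called higher against the chambers in each of the AVC and the OFT. *Furin*, a convertase that cuts the precursors of PDGF-A and PDGF-B, was at 35.4 TPM (AVC) and 15.4 TPM (OFT) against 1.29 for the atria and none listed for the ventricles (51.2-fold and 22.2-fold higher, p 1.00e-08 and 3.48e-06). *Lrp1*, a co-receptor of PDGFRβ, was 19.5-fold and 11.9-fold higher (p 4.06e-07 and 1.58e-05). *Pcsk6*, another convertase, was 4.05-fold higher in the OFT than in the AVC (36.1 against 8.89 TPM, p 0.00941, adjusted p 0.151).

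Relatives of the same receptor class and of the VEGF family had 7 of 15 tested called higher and 2 lower in the AVC, and 6 of 14 higher and 1 lower in the OFT, near the 43.4% and 40.6% of all genes called higher. With TMM normalization the AVC had 4 higher and 3 lower, and the OFT 5 higher and 4 lower. *Csf1*, the ligand of the neighbour of *Pdgfrb* on chromosome 18, was at 16.3 TPM (AVC) and 15.95 TPM (OFT) and unlisted in both chambers. *Vegfa* was 62.8-fold and 36.8-fold higher (92.8 and 54.5 TPM against none listed for the atria and 3.08 for the ventricles). *Pdgfd*, the remaining PDGF ligand, was 4.03-fold lower in the OFT than in the AVC (3.99 against 16.1 TPM, p 0.0159, adjusted p 0.215). *Nrp2* was 8.75-fold higher in the OFT than in the AVC (96.6 against 11.03 TPM, p 8.48e-05, adjusted p 0.00879). In that comparison 1 relative was called higher and 2 lower, and no gene of the adaptors, kinases, negative regulators or immediate early genes was called. Of all genes, 5.22% were called higher and 7.36% lower there. Between the ventricles and the atria, the negative regulators had 4 of 13 tested called higher and none lower, where 11.1% of all genes were called higher and 9.04% lower. Among these 4 was *Spry2*, a feedback inhibitor of receptor kinases (16.6 TPM in the ventricles and 4.71 in the atria, p 0.0308, adjusted p 0.190). It was called in 9 of 14 alternatives. Of 12 relatives tested there, 1 was called higher and 3 lower. *Src*, a kinase that both receptor families activate, was 3.91-fold lower in the ventricles than in the atria (p 0.0147, adjusted p 0.13).

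For the *Twist1* null AVC against the AVC the counts of these lists stand beside 12.7% of all genes called lower and 11.9% higher. Of the 7 genes of ligand processing and binding 3 were called lower, with a median log2 ratio of -1.07 against -0.16 for all genes. *Lrp1* was 3.70-fold lower (22.0 against 81.3 TPM, p 0.0117, adjusted p 0.0880), *Sparc*, a matrix protein that binds PDGF-B, 3.97-fold lower (248.5 against 985 TPM, p 0.00759, adjusted p 0.0673) and *Plat*, a protease that activates PDGF-C, 4.44-fold lower (13.8 against 61.2 TPM, p 0.00477, adjusted p 0.0520). Of the adaptors and effectors 3 of 23 were called lower, among them *Gab2* (3.66-fold, p 0.0183). *Akt1* was 3.75-fold higher and *Akt2* 3.35-fold lower (p 0.0105 and 0.0204). Of the negative regulators 2 of 14 were called lower, among them *Ptpn1* (3.06-fold, p 0.0296), which was called in 8 of 14 alternatives. With TMM normalization none of them was, where 3141 of all genes were called, 61.3% of these calls higher. Of the relatives 1 was called higher and 1 lower, and the latter, *Csf1*, was 3.58-fold lower (4.55 against 16.3 TPM, p 0.0192, adjusted p 0.115). The immediate early genes *Zfp36* and *Myc* were 4.34-fold and 3.50-fold higher and *Jun* 2.78-fold lower (p 0.00657, 0.0222 and 0.0456), and none of the genes named in this paragraph had an adjusted p under 0.05.

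The genes with the most similar profiles over the 5 libraries were found by the root mean square difference of log2(TPM + 1), each profile centred on its mean, among 11178 other genes with at least 50 tags. For *Pdgfrb* they were *Mrc2* (0.072), *Dchs1* (0.088) and *Oplah* (0.104). *Mrc2*, a collagen receptor of mesenchymal cells, was at 13.3 TPM (AVC), 10.4 (OFT), unlisted for both chambers and 2.47 for the *Twist1* null AVC, close to *Pdgfrb* in each. For *Kitl* they were *Cmip* (0.176), *Rtn4* (0.18) and *Nsmf* (0.208), and *Rtn4* ran from 600.5 TPM in the OFT to 6.00 in the atria. For *Pdgfra* they were *Adra1b* (0.162), *Zfp955a* (0.181) and *Popdc2* (0.198). *Popdc2*, a membrane protein of heart muscle, was at 361.5 TPM for the AVC, 195 for the OFT, 34.3 for the atria, 51.1 for the ventricles and 389 for the *Twist1* null AVC. For *Pdgfa* the nearest was *Rpp14* (0.112), for *Pdgfc* *Pdcd11* (0.131) and for *Kit* *H2-Q1* (0.094). With 5 points a profile, and both *Kit* and *H2-Q1* unlisted in the OFT and ventricles, these are descriptions only.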

How the data were processed

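Tag-seq libraries of 5 pooled tissues, 1 library a group, were analysed. The authors deposited raw counts per tag type: they kept the bases after the NlaIII site of Illumina reads and listed tag types seen more than 5 times. Their processing notes name mm9, and the coordinates given here are from the GRCm38 annotation instead. Tags were matched in sense to every CATG site of 33363 RefSeq-linked transcripts (GENCODE M21), with 20 A's added at transcript ends, and tags of a single gene were summed. No genome was used, so whether a tag is also found elsewhere in the genome was not checked. Counts were divided by the total of each library to give TPM. Genes were compared with the exact test of edgeR 4.0.16 (R 4.3.3, dispersion 0.12 after the study's methods, library totals without further normalization), atria and ventricles being summed as chambers. With 1 library a side, p-values compare libraries. Intervals are exact (Clopper-Pearson, for levels on the share of a library's tags). Scripts were tested on simulated data. Alternatives covered TMM and DESeq2 1.42.0 size factors, dispersion, filters, tag choice and depth (thinned to 4223810 tags). The members and lists were chosen with earlier results of these data known. Named were the 7 members, up to 4 called genes with at least 50 tags a list and comparison, and the 3 nearest profiles a member, of which the text gives a selection. Other genes are named as markers.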

Additional observations from a re-analysis of the deposited data

Results flagged for a closer look

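Signals outside the sense tags of RefSeq-linked transcripts were found for several of these genes. The *Pdgfra* tag type in intron 16 had 46 tags in the AVC and 13 in the larger *Twist1* null AVC library. Tags that match the antisense strand of *Pdgfa* numbered 615 in the *Twist1* null AVC, 91 in the AVC and 259 in the OFT. Its sense tags numbered 319, 87 and 150 in the same order. Antisense tags of *Pdgfra* numbered 163, 57 and 15 in these libraries, and those of *Kitl* 129, 33 and 31. For *Kit* they were 101, 17 and 24, and for *Pdgfc* 67, 10 and none listed. *Pdgfb* and *Pdgfrb* had no antisense tag in any library. The *Twist1* null AVC library held 12977237 tags, the AVC library 6075421 and the OFT library 5267618. The source of the antisense tags was not tested.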

How the results depend on the processing

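No paired analysis was possible because each group has 1 library. The number of genes called moved with the dispersion, with adjustment of p and with the treatment of low counts. For the AVC against the chambers it was 6444, and 2874 at a dispersion of 0.4 and 4173 with 5 tags for each missing tag type. For the OFT against the chambers it was 6163, then 2837 and 3900 in these settings and 4093 with at least 50 tags a gene. For the OFT against the AVC it was 1578, and 2574 at a dispersion of 0.05, 687 at 0.4, 392 by adjusted p, 323 with at least 50 tags and 405 with 5 tags put in. For the ventricles against the atria it was 2157, and in the same order 3409, 890, 671, 454 and 585. For the *Twist1* null AVC against the AVC it was 3189, and 5450, 813, 1167 and 2088, where 5 tags put in moved it by less than 1.5 times.

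Of the 7 genes, 4 were called in the OFT against the chambers, and 2 at a dispersion of 0.4, from the last site alone or with 5 tags put in. Against the AVC 1 was called in the OFT, and 2 at a dispersion of 0.05, with more than 10 tags a tag type or from the last site alone, and 0 with at least 50 tags, with 5 tags put in or without tags beginning with T. Between the chambers 3 were called, and 0 at a dispersion of 0.4 or by adjusted p and 1 with at least 50 tags or 5 tags put in. In the *Twist1* null AVC 2 were called, and 0 at a dispersion of 0.4. Leaving out a chamber library gave 4 (without the ventricles) and 5 (without the atria) called in the AVC, and 5 and 4 in the OFT, with 5987 to 6477 and 5784 to 6293 genes called in all. In the AVC without the ventricles *Kit* was lost and *Pdgfb* gained. Without the atria *Pdgfc* was called higher in the AVC (log2 ratio 1.72, p 0.0455) and in the OFT (2.07, p 0.0146).

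Directions turned only where the gene was not called, save for *Kitl* in the *Twist1* null AVC. In the AVC against the chambers the log2 ratio of *Pdgfa* was -0.37 with TMM normalization, -0.41 with DESeq2 size factors and -0.13 without tags beginning with T, and that of *Pdgfc* -0.42, -0.46 and, without the ventricles, -0.06. In the OFT against the chambers *Pdgfb* ran from -0.12 without the atria to a fitted 5.94 without the ventricles, where no tag is listed on the chamber side and the value depends on the prior count. *Kitl*, with 7 tags in each chamber, was between -0.17 and -0.05 in the ventricles against the atria with TMM normalization (-0.17), DESeq2 size factors (-0.17), totals without haemoglobin (-0.13) and without tags beginning with T (-0.05). In the *Twist1* null AVC *Pdgfra* was at -1.19 without tags beginning with T, -0.22 with all transcripts and -1.54 without its most abundant tag type. Without that tag type *Pdgfa* was at -0.57, *Pdgfc* at 0.93 and *Kitl* at 0.65, and *Kit* was at -0.23 from its last site or most abundant tag type alone. Settings on the most abundant tag type were chosen after seeing the data. It was the tag type with most tags over all 5 libraries, of which the *Twist1* null AVC is the largest. For *Pdgfa* it had 221 tags in the *Twist1* null AVC and 19 in the AVC, where another tag type had 24. The turn of *Pdgfa* thus cannot be read apart from this choice. The cause of these turns was not tested.

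TMM normalization moved all ratios by -0.95 and -0.85 in the AVC and OFT against the chambers, -0.32 between the chambers and 0.24 in the *Twist1* null AVC. The share of calls that were higher went from 84.2% to 59.4% in the AVC, from 82.1% to 59.7% in the OFT and from 48.3% to 61.3% in the *Twist1* null AVC. Below about 5 tags a tag type these files show no difference.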
